A study of Rattus norvegicus with 9 samples.

Results

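Cardiospheres formed on the OPC substrate were compared with spheroids formed on the ultralow attachment (ULA) substrate, using every gene measured in both. The comparison takes 6 of the 9 RNA-Seq libraries of the study, 3 from OPC and 3 from ULA, chosen by their labelled substrate. OPC is a liquid crystal film of octyl hydroxypropyl cellulose ester to which cells first attach before they aggregate, whereas ULA plastic keeps cells from attaching. The remaining 3 libraries came from cells on polystyrene (PS), where aggregates sit on attached supporting cells, and were used for the shared estimate of the spread. All 3 groups were wild-type (WT) cardiosphere-derived cells (CDCs) that, according to the methods, came from the left ventricular septum of 4-week-old male Sprague Dawley rats, kept for 3 days on their substrate. The labels name no other treatment. The labels call the replicates biological, without saying whether they came from separate animals, so p-values measure only the spread between these libraries. Of 19919 genes listed, the 12513 with an FPKM (fragments per length of gene and per size of library) of at least 1 in at least 3 of the 9 libraries were tested. Genes were named by the rule given with the processing, and further members of a list were named for their role with their values known.

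Cells in the middle of a spheroid receive oxygen and nutrients by diffusion. When oxygen is scarce, the prolyl hydroxylases that mark HIF-1α and HIF-2α for destruction slow down, and the stabilised factors turn on genes for glucose uptake, glycolysis, pH regulation and blood vessel growth. Cells also read sterol supply through SREBP-2, protein folding in the endoplasmic reticulum (ER) through the unfolded protein response, and attachment and stretch through YAP and SRF. The results follow the order of these systems.

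Libraries of 1 group resembled each other more than those of the other group. Pearson's r of log2(FPKM + 1) was 0.9873 to 0.9888 within OPC, 0.9872 to 0.9876 within ULA and 0.9494 to 0.9567 between them. Depth relative to the first OPC library, read from the steps of low values, was 0.79 and 0.868 for the other OPC libraries and 0.75 to 0.963 for the ULA libraries. Absolute read numbers cannot be read from FPKM, and no interval for counting error was computed. The mitochondrial genome took 10.6 to 11.1% of the FPKM of OPC libraries and 9.21 to 9.98% of that of ULA libraries. OPC replicate 3 resembled the PS libraries more (r = 0.9145 to 0.9167) than the other OPC libraries did (0.8972 to 0.903). This library and ULA replicate 2 stood apart from their groups for the gene groups named below, and results that rest on them are given with and without them. The summed level of 7 mesenchymal markers was 5058 to 5322 FPKM in OPC and 5138 to 5432 FPKM in ULA, and all 7 were above the filter. The members did not move together: 4 were called higher in OPC, 1 lower and 2 neither. The lower one was Vim, with a mean of 618 FPKM in OPC and 1396 FPKM in ULA. None of the 8 cardiomyocyte markers reached 1 FPKM in an OPC or ULA library. Of markers matched, the same held for 4 of 5 endothelial, 3 of 4 leukocyte, 2 of 2 lymphocyte, 3 of 4 epithelial and 1 of 1 blood. The lists named 7 endothelial, 9 leukocyte, 5 lymphocyte and 3 blood markers, and unmatched ones could not be read. The endothelial marker tested, Erg, was called lower in OPC. The endothelial sum was 3.04 to 3.2 FPKM in OPC and 4.63 to 5.29 FPKM in ULA. Of 3 glial markers 1 was below 1 FPKM in these libraries, and their sum, mostly S100b, was 18.1 to 20.4 FPKM in OPC and 21.8 to 22.6 FPKM in ULA, with 1 of the 2 tested called lower. Cd68, a lysosomal protein found in macrophages and in other cells, was the leukocyte marker above 1 FPKM, and the leukocyte sum was 21.9 to 26.2 FPKM in OPC and 40.2 to 40.4 FPKM in ULA.

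Most of the genes that differed between the substrates did so by a small amount. The test (limma on log2(FPKM + 1), with Benjamini-Hochberg adjustment) called 4034 genes higher in OPC (32.2% of genes tested) and 2717 lower (21.7%), with an adjusted p up to 0.05. The median |log2FC| (log2 fold change of OPC over ULA) of these genes was 0.39, and 6209 of them lay below 1. Genes that also differed by a log2FC of at least 1 are called DEGs here. There were 542 DEGs, of which 227 were higher in OPC (1.81% of genes tested) and 315 lower (2.52%). The decreases reached further: 53 DEGs were lower by a log2FC of at least 2 and 17 by at least 3, against 23 and 5 that were higher by as much. The 3 OPC values did not overlap the 3 ULA values in 223 of 227 and in 314 of 315 DEGs, against 60.7% of all genes tested. DEGs were chosen on these same values, so their separation, here and for single genes below, is a description and no separate support. Upper-quartile rescaling, which shifted the median log2FC of all genes from 0.059 to -0.002, left 547 DEGs but turned the passing genes to 3294 higher and 3318 lower. Small shifts in a group of genes are therefore read beside that setting. Counts of members called in a list are read beside 32.2% higher and 21.7% lower of all genes, here and below.

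**Figure D1:**
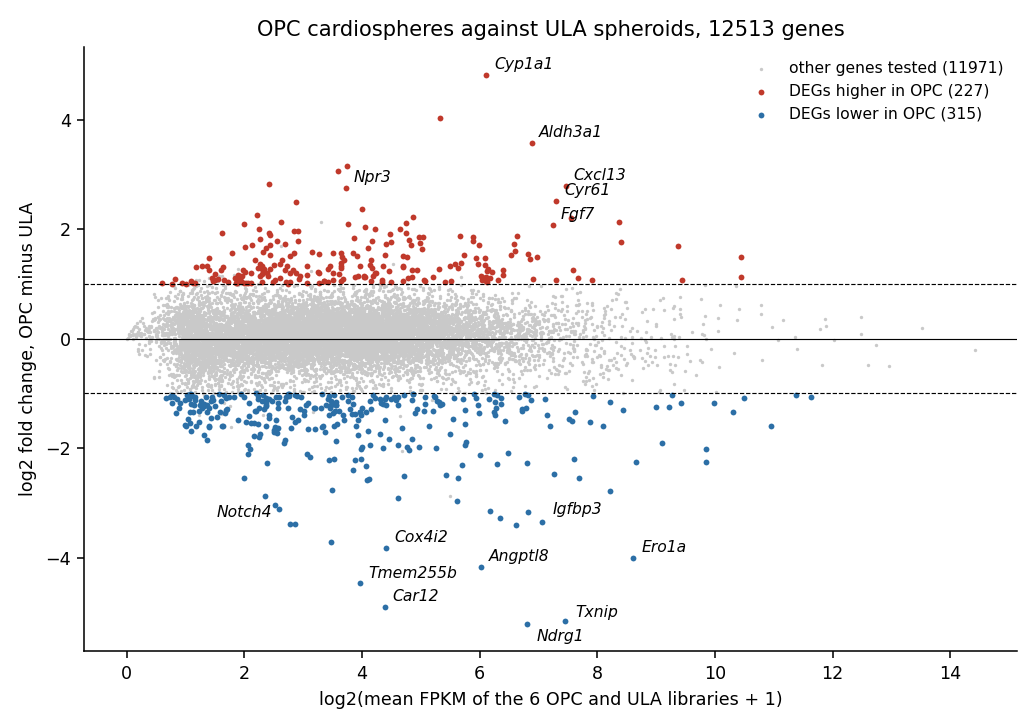
Each point is 1 of the 12513 genes tested, with the mean level of the 6 OPC and ULA libraries on the x axis (log2 scale) and the log2 fold change of OPC over ULA on the y axis. Red points are the 227 DEGs higher in OPC and blue points the 315 lower, dashed lines mark a log2FC of 1 and -1, and the lower DEGs extend further from 0 (to -5.21 for Ndrg1).

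**Figure D2:**
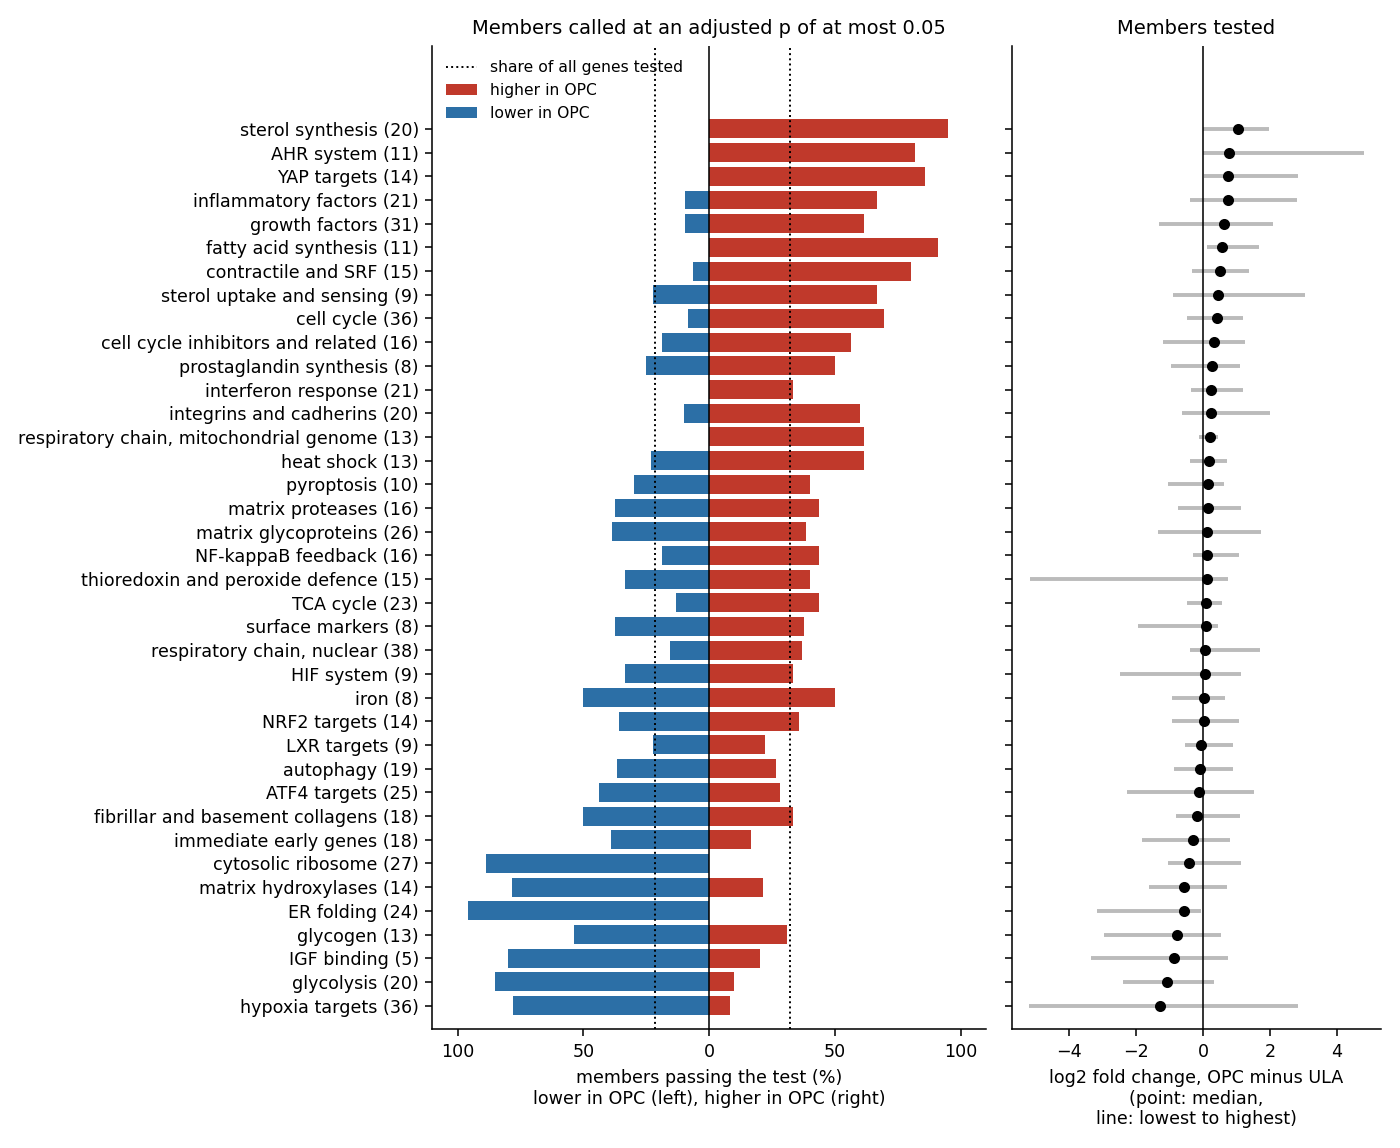
For each gene list, with the number of members tested in brackets, the left panel gives the percentage that passed the test as lower (blue) or higher (red) in OPC, with dotted lines at 21.7% and 32.2% for all genes tested, and the right panel gives the median and range of the log2FC. Sterol synthesis, AHR and YAP lists sit at the top, and glycolysis and hypoxia targets at the bottom.

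Genes that respond to low oxygen were mostly lower in OPC. Of 36 hypoxia targets tested, 28 were lower in OPC, 3 were higher and 5 did not pass, with 19 DEGs lower and 1 higher. The median log2FC was -1.27, against 0.06 over all genes tested. In bulk RNA, fewer cells with the response and a weaker response per cell cannot be told apart. The list divides by role. Among 7 mitochondrial members, 6 were DEGs lower in OPC. Ndufa4l2, a protein that restrains the respiratory chain in hypoxia, had 15.4, 15 and 17.4 FPKM in the OPC libraries, against 174, 174 and 188 FPKM in the ULA libraries (log2FC -3.41, SE 0.06, adjusted p = 2.61e-09). Cox4i2, the cytochrome oxidase subunit used at low oxygen, had 1.72, 2.4 and 1.41 FPKM in the OPC libraries, against 37.3, 36.9 and 42.2 FPKM in the ULA libraries (log2FC -3.82, SE 0.17, adjusted p = 1.71e-07). Every ULA value lay far above every OPC value for both genes. Bnip3l, a mitophagy receptor, differed less (log2FC -1.27, SE 0.04, adjusted p = 4.19e-08), and Fundc1, another such receptor, had 11.3, 11.5 and 12.8 FPKM in the OPC libraries, against 12.7, 12.4 and 13.8 FPKM in the ULA libraries and did not pass (log2FC -0.12, adjusted p = 0.141, against -0.17 and 0.0462 without OPC replicate 3).

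Of 3 genes of acid handling, 2 were lower and 1 was higher. Car9, the membrane carbonic anhydrase that exports acid equivalents, had 16.7, 13.7 and 12.6 FPKM in the OPC libraries, against 146, 142 and 152 FPKM in the ULA libraries (log2FC -3.28, SE 0.08, adjusted p = 9.93e-09). The related Car12, at rn6 chr8:72405748-72460240, was below 1 FPKM in each OPC library (0.453, 0.518 and 0.131) and had 35.2, 38.7 and 44.9 FPKM in the ULA libraries. Of 9 secreted targets, 5 were lower, 2 higher and 2 did not pass. Vegfa, the main vessel growth factor, had 204, 196 and 199 FPKM in the OPC libraries, against 474, 491 and 517 FPKM in the ULA libraries (log2FC -1.30, SE 0.04, adjusted p = 4.21e-08), and Stc2, a secreted stanniocalcin, had 1.01, 1.1 and 1.17 FPKM in the OPC libraries, against 5.96, 4.74 and 8.56 FPKM in the ULA libraries. Both were lower in every OPC library. Adm, which encodes the vasodilator adrenomedullin, had 25.1, 20.04 and 39.97 FPKM in the OPC libraries, against 25.7, 26.1 and 27.1 FPKM in the ULA libraries, with overlapping groups and OPC replicate 3 the highest. Without that library Adm was lower in OPC (log2FC -0.22, adjusted p = 0.0484). Edn1, which encodes the vasoconstrictor endothelin-1, was the 1 hypoxia target that was a DEG higher in OPC, and it is also on the YAP list described below. Among 17 signalling and stress targets, 15 were lower, led by Ndrg1, a stress-response gene (log2FC -5.21, adjusted p = 2.82e-09). Angptl8, a secreted regulator of lipoprotein lipase that overlaps Dock6 and is on none of the lists, was among the largest decreases as well (log2FC -4.17, adjusted p = 1.21e-07).

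The oxygen sensors themselves were uneven. Egln1, which encodes the main HIF prolyl hydroxylase PHD2 and is itself induced by HIF, had 46.9, 46.5 and 44.5 FPKM in the OPC libraries, against 251, 248 and 282 FPKM in the ULA libraries (log2FC -2.47, SE 0.08, adjusted p = 4.21e-08). Egln3, the inducible PHD3, had 74.1, 72.3 and 73.1 FPKM in the OPC libraries, against 163, 146 and 172 FPKM in the ULA libraries (log2FC -1.12, SE 0.06, adjusted p = 9.07e-07). No OPC value of either gene reached a ULA value. Egln2 and Hif1an, the hydroxylases that are not known as HIF targets, did not pass (log2FC 0.15 and 0.01, adjusted p = 0.0613 and 0.96), and Egln2 passed as higher in the fit of the 6 OPC and ULA libraries alone (adjusted p = 0.0281). Of the 4 HIF subunits tested, 3 were higher in OPC and 1 did not pass. Hif1a had 152, 146 and 146 FPKM in the OPC libraries, against 135, 130.4 and 121 FPKM in the ULA libraries (log2FC 0.20, adjusted p = 0.00483), and Epas1, which encodes HIF-2α, had 34.6, 32.2 and 34.6 FPKM in the OPC libraries, against 23.6, 24.2 and 22.4 FPKM in the ULA libraries (log2FC 0.51, adjusted p = 2.23e-05). Arnt, their common partner, had 26.1, 26.2 and 23.3 FPKM in the OPC libraries, against 24.7, 25.2 and 23.3 FPKM in the ULA libraries and did not pass, while its paralog Arnt2 was a DEG higher in OPC at a low level (log2FC 1.15, SE 0.08, adjusted p = 4.6e-06).

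HIF binds the core of the hypoxia response element, of which the form with A first, ACGTG, was searched. Other forms of that core were not counted. In RefSeq promoters (build GRCr8, 250 bases before to 50 after the first start listed), ACGTG occurred on either strand in 24 of the 46 hypoxia targets and glycolysis genes with an entry (52.2%), out of 56 tested. The share was 15 of 26 among the DEGs (57.7%) and 19.7% of 27457 promoters of all genes. Here and below, all promoters include those of genes that were not tested. No share was computed for tested genes alone, so the difference cannot be tied to the change in OPC. The 2 DEGs with the largest change among promoters that hold it are shown, and they are the acid-handling pair above. Car12 holds 2 matches, of which 1 is shown. Capitals mark ACGTG or its reverse complement, and a match is a description of letters, not of binding.
Car12 (GRCr8 chr8:76169765-76169844, plus strand): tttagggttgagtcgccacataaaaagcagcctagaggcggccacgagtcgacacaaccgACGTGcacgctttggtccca
Car9 (GRCr8 chr5:62558965-62559053, plus strand): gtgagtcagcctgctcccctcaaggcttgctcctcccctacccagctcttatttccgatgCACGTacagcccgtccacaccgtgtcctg

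Transcripts for glucose use were lower from uptake to lactate export. Of 20 glycolysis genes tested, 17 were lower in OPC, 2 higher and 1 did not pass, with 12 DEGs, all of them lower. The median log2FC was -1.07. All 3 transporters tested were DEGs, and so were 5 of 10 enzymes down to triose phosphate and 4 of 7 from there to lactate. Aldoc, a brain-type aldolase, had 3.65, 3 and 4.18 FPKM in the OPC libraries, against 21.1, 24 and 24.9 FPKM in the ULA libraries (log2FC -2.40, SE 0.10, adjusted p = 1.63e-07), and the platelet-type phosphofructokinase Pfkp had 28.4, 26.8 and 23.8 FPKM in the OPC libraries, against 79.2, 77.6 and 80.6 FPKM in the ULA libraries (log2FC -1.55, SE 0.07, adjusted p = 1.87e-07). Ldhb, the lactate dehydrogenase subunit of heart, had 42.5, 39.5 and 41.4 FPKM in the OPC libraries, against 33.3, 32.3 and 33.1 FPKM in the ULA libraries (log2FC 0.31, adjusted p = 0.000461), the opposite direction. Bsg, the chaperone of the lactate transporters, was not on the list and was named after its values were seen. It had 422, 422 and 418 FPKM in the OPC libraries, against 944, 920.5 and 987 FPKM in the ULA libraries (log2FC -1.18, SE 0.03, adjusted p = 1.69e-08).

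Glycogen genes were lower mainly on the synthesis side. Of 7 synthesis genes, 6 were lower and 1 higher in OPC, whereas of 6 breakdown genes 1 was lower, 3 were higher and 2 did not pass. Gbe1, the branching enzyme, had 9.52, 11.4 and 9.56 FPKM in the OPC libraries, against 85, 83 and 88.6 FPKM in the ULA libraries (log2FC -2.96, SE 0.07, adjusted p = 8.31e-09). Gys1, glycogen synthase, had 32.7, 32.7 and 32.6 FPKM in the OPC libraries, against 67.6, 68.6 and 77.3 FPKM in the ULA libraries (log2FC -1.10, SE 0.06, adjusted p = 6.31e-07). Ugp2, which makes UDP-glucose, followed with a log2FC of -0.92 (adjusted p = 4.32e-06). The breakdown gene that fell was Pygl, liver-type phosphorylase, with 13.5, 13.3 and 13.7 FPKM in the OPC libraries, against 81.5, 82.1 and 88.3 FPKM in the ULA libraries (log2FC -2.55, SE 0.05, adjusted p = 2.61e-09). The brain type Pygb did not pass (log2FC 0.07, adjusted p = 0.381), and lysosomal Gaa was slightly higher in OPC (log2FC 0.31, adjusted p = 9.93e-05). Gyg1, the primer of glycogen, was the synthesis gene that was higher in OPC (log2FC 0.32, adjusted p = 0.000639).

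Many collagen-modifying enzymes use oxygen as a substrate, and several are HIF targets. Of 14 tested, 11 were lower in OPC and 3 higher, with 4 DEGs, all lower. These DEGs include P4hb, the disulfide isomerase subunit of the prolyl hydroxylases. P4ha2, a collagen prolyl hydroxylase, had 70.1, 68.7 and 77.6 FPKM in the OPC libraries, against 213, 212 and 236 FPKM in the ULA libraries (log2FC -1.60, SE 0.06, adjusted p = 6.77e-08). Lox, which crosslinks collagen and elastin, had 120, 113 and 176 FPKM in the OPC libraries, against 401, 399 and 421 FPKM in the ULA libraries (log2FC -1.60, SE 0.14, adjusted p = 1.08e-05), and OPC replicate 3 was the highest of the OPC libraries. Its relatives divided, since Loxl2 was lower in OPC (log2FC -1.40, SE 0.05, adjusted p = 4.21e-08) while Loxl1 and Loxl3 were higher (log2FC 0.50 and 0.71, adjusted p = 2.96e-06 and 9.96e-06).

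ER folding genes were lower almost without exception. All 24 members were tested, 23 were lower in OPC and 1 did not pass, and 8 were DEGs. The median log2FC was -0.57. All 15 chaperones and disulfide enzymes were lower. Hspa5, which encodes the ER chaperone BiP, had 362, 359.6 and 375 FPKM in the OPC libraries, against 1301, 1576 and 1580 FPKM in the ULA libraries (log2FC -2.01, SE 0.07, adjusted p = 4.21e-08). Hsp90b1, the ER form of HSP90, had 309, 306 and 334 FPKM in the OPC libraries, against 1350, 1651 and 1565 FPKM in the ULA libraries (log2FC -2.26, SE 0.07, adjusted p = 2.57e-08). Pdia4, a disulfide isomerase, had 143, 134 and 141 FPKM in the OPC libraries, against 621, 686 and 705 FPKM in the ULA libraries (log2FC -2.26, SE 0.05, adjusted p = 5.43e-09). The groups lay well apart for each of these abundant mRNAs. Creld2, an ER stress-induced secretory protein, had 21.3, 22 and 21.8 FPKM in the OPC libraries, against 177, 207 and 228 FPKM in the ULA libraries (log2FC -3.17, SE 0.09, adjusted p = 2.11e-08). Ero1a, the oxidase that hands electrons from disulfide isomerases to oxygen, is a HIF target counted with the hypoxia targets and not in this list. It had 48.1, 44 and 42 FPKM in the OPC libraries, against 679, 711 and 821 FPKM in the ULA libraries. Calr, a lectin chaperone, differed less (log2FC -0.39, adjusted p = 5.62e-05).

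Among the sensors and degradation factors, 8 of 9 were lower. Herpud1, which serves ER-associated degradation, had 43.4, 44.5 and 44.1 FPKM in the OPC libraries, against 115, 120.2 and 147 FPKM in the ULA libraries (log2FC -1.50, SE 0.08, adjusted p = 5.28e-07). Derl3, a retrotranslocation factor, was listed at 0 in the 3 OPC libraries and at 21.3, 4.46 and 4.35 FPKM in the ULA libraries, so no fold is given. Of the 3 sensors, Atf6 and Ern1 were slightly lower (log2FC -0.51 and -0.31, adjusted p = 8.97e-06 and 0.00166), and Eif2ak3, which encodes PERK, did not pass (log2FC -0.06, adjusted p = 0.353). Targets of ATF4, the factor translated when PERK or amino acid sensors are active, did not move as 1 group: 11 of 25 were lower, 7 higher and 7 did not pass. This count and those of its members below are read beside 32.2% higher and 21.7% lower of all genes. Under upper-quartile rescaling 6 ATF4 targets were higher and 12 lower. Among 8 transcription and feedback factors, 5 were lower and 1 was higher. Ddit3, which encodes CHOP and overlaps Mars on the opposite strand, had 24.4, 22.9 and 21.9 FPKM in the OPC libraries, against 93.1, 116 and 102 FPKM in the ULA libraries (log2FC -2.12, SE 0.10, adjusted p = 2.48e-07), and Trib3, a pseudokinase that restrains ATF4, had 8.19, 8.76 and 8.36 FPKM in the OPC libraries, against 21.3, 21.9 and 26.1 FPKM in the ULA libraries (log2FC -1.35, SE 0.07, adjusted p = 6.55e-07). Cebpb, an inflammatory and ER stress factor, was the factor that was higher, with 46.5, 91.2 and 96.1 FPKM in the OPC libraries, against 33.1, 18.5 and 25.9 FPKM in the ULA libraries (log2FC 1.52, SE 0.37, adjusted p = 0.00667). Of 12 amino acid genes 4 were lower, 4 higher and 4 did not pass. The amino acid response element letters TGATGNAA occurred on either strand in 5 of 24 ATF4 target promoters (20.8%) and in 3.82% of all promoters. Among the 5 DEGs of this list, 1 held them, and it is shown with the reverse complement in capitals.
Trib3 (GRCr8 chr3:161275534-161275614, minus strand): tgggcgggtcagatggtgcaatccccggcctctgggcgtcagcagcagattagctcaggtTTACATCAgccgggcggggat

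Sterol genes were higher in OPC almost without exception. Of 20 sterol synthesis genes, 19 were higher in OPC and 1 did not pass, with 11 DEGs and a median log2FC of 1.04. Idi1, the isoprenoid isomerase, had 10.6, 11.3 and 9.41 FPKM in the OPC libraries, against 1.93, 1.59 and 2.26 FPKM in the ULA libraries (log2FC 1.97, SE 0.09, adjusted p = 2.34e-07). Its lowest OPC library lay above its highest ULA library. Sqle, squalene epoxidase, and Ebp, a sterol isomerase, had the smallest increases that passed (log2FC 0.42 and 0.37, adjusted p = 0.000108 and 0.00286), and Pmvk had 6.43, 5.51 and 4.77 FPKM in the OPC libraries, against 5.2, 5.46 and 5.82 FPKM in the ULA libraries and did not pass. In PS libraries Idi1 averaged 27.7 FPKM, above each OPC value.

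Uptake and sensing genes were called 6 higher, 2 lower and 1 not passing out of 9. Srebf2, which encodes SREBP-2, the activator of sterol genes, had 25.2, 25.7 and 23.2 FPKM in the OPC libraries, against 9.25, 10.1 and 9.12 FPKM in the ULA libraries (log2FC 1.29, SE 0.05, adjusted p = 1.27e-07), and its escort Scap was also higher (log2FC 0.46, adjusted p = 8.27e-06). The retention factors that hold SREBP in the ER went the other way. Insig1 had 39.3, 38.5 and 32.6 FPKM in the OPC libraries, against 47.2, 64.4 and 58.2 FPKM in the ULA libraries (log2FC -0.60, SE 0.10, adjusted p = 0.00108), and is itself a SREBP target, and Insig2 had 13.8, 10.9 and 11.8 FPKM in the OPC libraries, against 22.6, 22.6 and 25.4 FPKM in the ULA libraries (log2FC -0.90, SE 0.08, adjusted p = 1.66e-05). Vldlr, a lipoprotein receptor counted here with ATF4 targets, was lower in OPC (log2FC -2.29, SE 0.06, adjusted p = 1.69e-08). Genes of fatty acid synthesis, which SREBP-1 drives, were also mostly higher: 10 of 11 genes were higher and 1 did not pass, with a median log2FC of 0.58. Fasn, fatty acid synthase, had 39.4, 38.1 and 37.9 FPKM in the OPC libraries, against 16.9, 17.5 and 17.1 FPKM in the ULA libraries (log2FC 1.12, SE 0.03, adjusted p = 2.45e-08), and Scd, the stearoyl-CoA desaturase, had 6.43, 7.02 and 7.05 FPKM in the OPC libraries, against 1.68, 1.31 and 1.46 FPKM in the ULA libraries (log2FC 1.66, SE 0.07, adjusted p = 1.63e-07). Targets of LXR, the receptor for excess sterols, were called 2 higher, 2 lower and 5 not passing out of 9. Of all genes tested, 32.2% were called higher and 21.7% lower. Under upper-quartile rescaling 9 fatty acid genes were higher and 4 LXR targets were lower. The sterol regulatory element letters TCACNCCAC were found in 0 of 15 sterol synthesis promoters with an entry and in 1.13% of all promoters, so no promoter is shown.

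**Figure D3:**
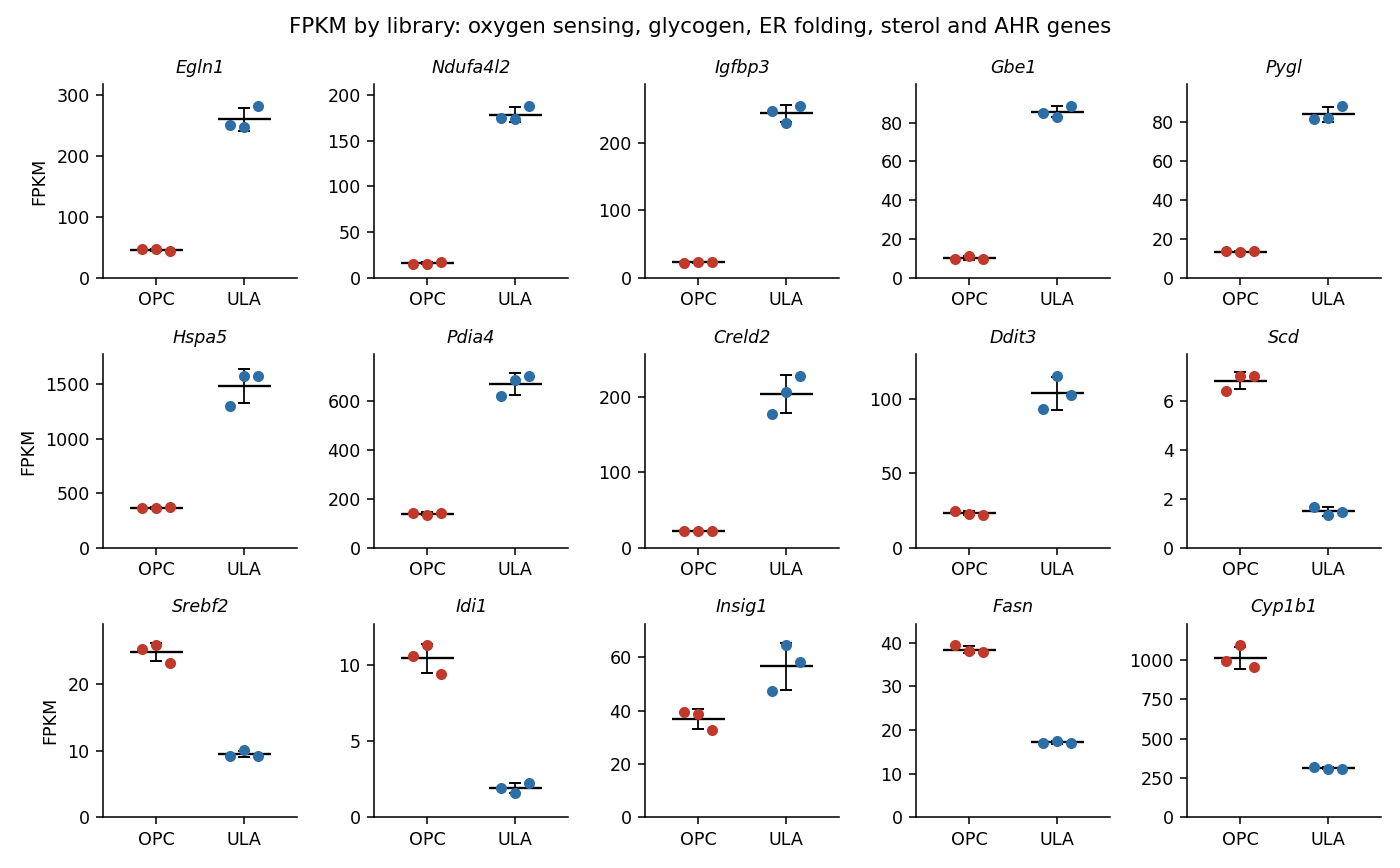
FPKM in each library for 15 genes, with the 3 OPC libraries (red) left of the 3 ULA libraries (blue), horizontal lines at the group mean and bars of 1 SD. The OPC and ULA values do not overlap in any panel, and the genes from Egln1 to Ddit3 and Insig1 are lower in OPC, the others higher.

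The aryl hydrocarbon receptor (AHR) binds planar aromatic ligands and turns on detoxifying enzymes. All 6 targets tested were higher in OPC, and 4 of them were DEGs, including Cyp1a1 and Aldh3a1 (log2FC 4.82 and 3.57, adjusted p = 8.53e-07 and 2.15e-05). Cyp1b1, a cytochrome P450, had 993, 1094 and 955 FPKM in the OPC libraries, against 319, 306 and 310.3 FPKM in the ULA libraries (log2FC 1.70, SE 0.05, adjusted p = 1.78e-08). It was the third most abundant DEG higher in OPC, among DEGs with a symbol and no overlap between groups. Tiparp, a feedback ADP-ribosyltransferase, had 54.3, 57.6 and 46.8 FPKM in the OPC libraries, against 33, 31.2 and 31.4 FPKM in the ULA libraries (log2FC 0.71, SE 0.07, adjusted p = 2.6e-05). Ahrr, the AHR repressor, had 8.94, 11.2 and 7.09 FPKM in the OPC libraries, against 1.16, 1.32 and 1.34 FPKM in the ULA libraries (log2FC 2.13, SE 0.14, adjusted p = 2.68e-06), and the receptor itself had a log2FC of 0.58 (adjusted p = 1.65e-05). The groups did not overlap in these genes. OPC replicate 3 was the lowest OPC library in 10 of 11 AHR genes, against 39.7% of all genes tested, and without it 9 of 11 were higher and 5 were DEGs, equal to the counts with it. The AHR core TNGCGTG shares CGTG with the letters ACGTG searched above but needs G before it. It occurred in 2 of the 8 genes of the list with a promoter entry (25%), out of 11 tested, and in 5.12% of all promoters. Cyp1a1 and Aldh3a1 had no entry and were not searched. The 2 promoters that hold the core belong to DEGs, and both are shown, with the core in capitals.
Ahrr (GRCr8 chr1:30822100-30822218, plus strand): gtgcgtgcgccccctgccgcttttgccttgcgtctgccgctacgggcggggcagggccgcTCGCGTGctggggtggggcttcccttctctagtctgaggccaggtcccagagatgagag
Cyp1b1 (GRCr8 chr6:21094483-21094564, plus strand): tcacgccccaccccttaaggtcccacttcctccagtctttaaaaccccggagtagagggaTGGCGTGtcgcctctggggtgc

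Nqo1 belongs to both the AHR and the NRF2 lists. Of 14 NRF2 targets, 5 including Nqo1 were higher, 5 lower and 4 did not pass, beside 32.2% higher and 21.7% lower of all genes, and 4 were higher and 7 lower under upper-quartile rescaling. Nqo1, a quinone reductase, had 966, 1031 and 823 FPKM in the OPC libraries, against 460.5, 448 and 428 FPKM in the ULA libraries (log2FC 1.07, SE 0.08, adjusted p = 3.7e-06). Hmox1, the haem oxygenase, had 403, 364 and 340.5 FPKM in the OPC libraries, against 734, 656 and 723 FPKM in the ULA libraries (log2FC -0.93, SE 0.06, adjusted p = 3.02e-06). In the peroxide defence list, 6 of 15 were higher and 5 lower, and 6 and 6 under upper-quartile rescaling. Sod3, the secreted superoxide dismutase, had 689, 706 and 695 FPKM in the OPC libraries, against 436, 389.6 and 416 FPKM in the ULA libraries (log2FC 0.75, SE 0.05, adjusted p = 1.81e-06), whereas the secreted peroxidase Gpx3 had 514, 467 and 486 FPKM in the OPC libraries, against 775, 736 and 735 FPKM in the ULA libraries (log2FC -0.61, SE 0.05, adjusted p = 8.85e-06). Txnip, which binds thioredoxin and limits glucose uptake, had the largest decrease of this list (log2FC -5.16), with OPC values of 9.76, 9.43 and 6.7 FPKM and ULA values of 334, 341 and 344 FPKM. Its paralog Arrdc4, named after its values were seen, had 22.3, 21.7 and 22.3 FPKM in the OPC libraries, against 84.5, 78.5 and 91.4 FPKM in the ULA libraries (log2FC -1.89, SE 0.10, adjusted p = 5.64e-07).

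Chemokine genes were higher in OPC. Of 13 tested, 10 were higher, 0 lower and 3 did not pass, with 6 DEGs and a median log2FC of 0.96. The B cell chemokine Cxcl13 and the neutrophil chemokine Cxcl3 were among them (log2FC 2.79 and 2.21, adjusted p = 0.000181 and 3.72e-07). The neutrophil chemokine Cxcl6 had 518, 525 and 575 FPKM in the OPC libraries, against 135, 121 and 111 FPKM in the ULA libraries (log2FC 2.13, SE 0.14, adjusted p = 2.5e-06). Cxcl12, which holds and attracts progenitor cells through CXCR4, had 39.4, 35.9 and 53.7 FPKM in the OPC libraries, against 9.3, 9.03 and 8.78 FPKM in the ULA libraries (log2FC 2.11, SE 0.12, adjusted p = 8.66e-07), with OPC replicate 3 the highest. Ccl2, the monocyte chemokine, had 1708, 1695 and 1786 FPKM in the OPC libraries, against 958, 913 and 808 FPKM in the ULA libraries (log2FC 0.96, SE 0.06, adjusted p = 1.38e-06). All OPC values lay above the ULA values for these genes. The interferon-linked Cxcl10 and Ccl5 did not pass (log2FC -0.11 and 0.14, adjusted p = 0.586 and 0.575). Among 8 cytokines 4 were higher and 2 lower, and 1 member of the whole inflammatory list was lower without OPC replicate 2, ULA replicate 1 or ULA replicate 2. Il6 had 145, 131 and 164 FPKM in the OPC libraries, against 93.1, 101 and 95.1 FPKM in the ULA libraries (log2FC 0.59, adjusted p = 9.59e-05), and Csf3, the granulocyte factor, had 4.21, 3.8 and 4.3 FPKM in the OPC libraries, against 1.18, 0.85 and 0.296 FPKM in the ULA libraries (log2FC 1.55, SE 0.18, adjusted p = 8.67e-05). Il1b, Il1a, Tnf and Csf2 did not pass the filter on low values. The leukocyte sum given above was lower in OPC, and its part in these values was not tested.

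Feedback genes of NF-κB were called 7 higher, 3 lower and 6 not passing out of 16, and 5 higher and 3 lower under upper-quartile rescaling. This count and the next are read beside 32.2% higher and 21.7% lower of all genes. Nfkb1 had a log2FC of 0.47 (adjusted p = 1.26e-05), Nfkbiz one of -0.30 (adjusted p = 0.000771). Of 8 prostaglandin synthesis genes, 4 were higher, 2 lower and 2 did not pass. Pla2g2a, a secreted phospholipase, had 1193, 1270 and 1138 FPKM in the OPC libraries, against 679, 593 and 561 FPKM in the ULA libraries (log2FC 0.98, SE 0.07, adjusted p = 5.99e-06). The cyclooxygenases Ptgs1 and Ptgs2 were DEGs higher in OPC (log2FC 1.10, SE 0.04, adjusted p = 1.36e-07, and log2FC 1.08, SE 0.07, adjusted p = 2.93e-06). The terminal synthase Ptges had 21, 17.6 and 16.5 FPKM in the OPC libraries, against 37.4, 35.1 and 36.3 FPKM in the ULA libraries (log2FC -0.95, SE 0.18, adjusted p = 0.00149), the opposite order, while Ptges2, another synthase of the same step, was higher (log2FC 0.37, adjusted p = 0.00978). Pyroptosis genes were called 4 higher, 3 lower and 3 not passing out of 10, beside 32.2% higher and 21.7% lower of all genes. Casp4, the inflammatory caspase that senses lipopolysaccharide, had 22.2, 25 and 22.9 FPKM in the OPC libraries, against 44.2, 51.9 and 52.3 FPKM in the ULA libraries (log2FC -1.05, SE 0.07, adjusted p = 1.9e-06), and Ninj1, which ruptures the plasma membrane, had 73.4, 70.3 and 68.2 FPKM in the OPC libraries, against 101, 111 and 109 FPKM in the ULA libraries (log2FC -0.60, SE 0.04, adjusted p = 4.11e-06). Gsdmd, the pore former cut by these caspases, had 11.5, 12.4 and 11.3 FPKM in the OPC libraries, against 9.68, 9.66 and 9.19 FPKM in the ULA libraries (log2FC 0.28, SE 0.05, adjusted p = 0.00132), and Casp1 had 3.13, 3.06 and 2.7 FPKM in the OPC libraries, against 2.71, 3.64 and 3.15 FPKM in the ULA libraries and did not pass (adjusted p = 0.609). Under upper-quartile rescaling, 2 pyroptosis genes were higher and 3 lower, and 2 were higher without OPC replicate 1 or 2 and 1 without ULA replicate 3. Interferon-response genes were called 7 higher and 0 lower out of 21 (percentage of all genes higher, 32.2%). OPC replicate 3 was the lowest OPC library in 20 of the 21, and without it 10 were higher. Without OPC replicate 2, 5 were higher and 1 lower, and under upper-quartile rescaling 6 were higher and 1 lower.

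Genes that report attachment and tension were higher in OPC. Of 14 YAP targets and partners, 12 were higher and 2 did not pass, with 5 DEGs and a median log2FC of 0.75. Cyr61, a matricellular protein and standard YAP target, had 264, 258 and 281 FPKM in the OPC libraries, against 49, 43 and 46.5 FPKM in the ULA libraries (log2FC 2.51, SE 0.05, adjusted p = 2.82e-09). Ctgf, its relative, had 469, 453 and 648 FPKM in the OPC libraries, against 146, 158 and 150.1 FPKM in the ULA libraries (log2FC 1.76, SE 0.11, adjusted p = 2.13e-06). Edn1 had 6.9, 4.97 and 13.3 FPKM in the OPC libraries, against 0.395, 0.0565 and 0.276 FPKM in the ULA libraries. The levels in PS averaged 762, 2879 and 232 FPKM for the 3 genes. Yap1 itself had 51.8, 57 and 53.4 FPKM in the OPC libraries, against 43.9, 43 and 41.8 FPKM in the ULA libraries (log2FC 0.33, adjusted p = 0.00323), Wwtr1, which encodes TAZ, did not pass (log2FC 0.04, adjusted p = 0.389), and Vgll3, another TEAD cofactor, had 21.9, 21 and 35.1 FPKM in the OPC libraries, against 3.61, 4.32 and 4.46 FPKM in the ULA libraries (log2FC 2.36, SE 0.16, adjusted p = 3.05e-06). Contractile and SRF genes were called 12 higher, 1 lower and 2 not passing out of 15. Tagln, an actin-binding protein of smooth muscle, had 82.4, 68.2 and 119 FPKM in the OPC libraries, against 32.7, 35.1 and 32.7 FPKM in the ULA libraries (log2FC 1.36, SE 0.16, adjusted p = 8e-05), and Mkl1, the SRF coactivator, had 17.8, 18.7 and 16.7 FPKM in the OPC libraries, against 8.21, 9.85 and 8.79 FPKM in the ULA libraries (log2FC 0.92, SE 0.06, adjusted p = 3.61e-06). OPC replicate 3 was the highest OPC library in 11 of 14 YAP and 12 of 15 contractile genes, against 32.4% of all genes. Without it 12 YAP and 11 contractile genes were higher. The 1 contractile gene called lower, the calponin Cnn1, was below 1 FPKM in each OPC and ULA library, with 0.234, 0.0495 and 0.0902 FPKM in the OPC libraries, against 0.488, 0.262 and 0.46 FPKM in the ULA libraries, and passed the filter through its PS values (mean 22.7 FPKM). Its call (log2FC -0.32, SE 0.10, adjusted p = 0.0199) was lost in the fit of the 6 OPC and ULA libraries alone (adjusted p = 0.117) and without OPC replicate 2, ULA replicate 1 or ULA replicate 3 (adjusted p = 0.0597, 0.0606 and 0.0569). Without OPC replicate 3, 2 contractile genes were lower. In PS, the summed level of 5 smooth muscle markers was 2562 to 2635 FPKM, against 90.8 to 148.8 FPKM in OPC and 53.5 to 55.7 FPKM in ULA. The part of smooth muscle cells in the contractile and YAP values was not tested.

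Most integrins were higher in OPC. Of 13 integrins tested, 10 were higher in OPC, 2 lower and 1 did not pass. Itga11, a collagen receptor of fibroblasts, had 36.4, 36.6 and 44.5 FPKM in the OPC libraries, against 8.86, 8.58 and 9.37 FPKM in the ULA libraries (log2FC 2.01, SE 0.07, adjusted p = 7.18e-08). Itga3, a laminin receptor, had 15.8, 13.3 and 14 FPKM in the OPC libraries, against 6.13, 6.11 and 6.73 FPKM in the ULA libraries (log2FC 1.07, SE 0.08, adjusted p = 5.44e-06). Itga5, the fibronectin receptor subunit, had 72.8, 67.7 and 66 FPKM in the OPC libraries, against 94.7, 91.8 and 91 FPKM in the ULA libraries (log2FC -0.42, SE 0.04, adjusted p = 3.59e-05), in the opposite direction. Of 7 cadherins and gap junction genes, Cdh11 and Gja1 were higher (log2FC 1.05 and 0.24, adjusted p = 4.47e-07 and 0.000214), and Cdh2 had 47.3, 48.8 and 53.1 FPKM in the OPC libraries, against 47, 49.1 and 47.7 FPKM in the ULA libraries and did not pass.

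Growth factor genes were mostly higher in OPC: 19 of 31 were higher, 3 lower and 9 did not pass, with 8 DEGs higher and 1 lower, which was Vegfa. The median log2FC was 0.61. Ligands of receptor tyrosine kinases were among them. Fgf7, keratinocyte growth factor, which overlaps Fam227b on the opposite strand, had 231, 218 and 286 FPKM in the OPC libraries, against 57.6, 56.5 and 56.5 FPKM in the ULA libraries (log2FC 2.08, SE 0.09, adjusted p = 1.53e-07). Fgf10, which shares its receptor, had 28.4, 24.8 and 27.4 FPKM in the OPC libraries, against 7.97, 7.22 and 6.3 FPKM in the ULA libraries (log2FC 1.77, SE 0.08, adjusted p = 1.96e-07). Angpt1, the TIE2 ligand that stabilises vessels, had 26.9, 27.9 and 31.6 FPKM in the OPC libraries, against 7.49, 6.56 and 5.3 FPKM in the ULA libraries (log2FC 2.01, SE 0.10, adjusted p = 4.89e-07). None of these overlapped between the groups. Hgf, the MET ligand, had 23.3, 21.1 and 27.9 FPKM in the OPC libraries, against 11.7, 9.44 and 10.1 FPKM in the ULA libraries (log2FC 1.14, SE 0.10, adjusted p = 1.99e-05), Igf1 had 39.8, 43.2 and 44.6 FPKM in the OPC libraries, against 26.1, 24.9 and 23.8 FPKM in the ULA libraries (log2FC 0.75, SE 0.06, adjusted p = 1.04e-05), and Ereg, an EGF receptor ligand, had 23.9, 27.3 and 24.2 FPKM in the OPC libraries, against 8.24, 6.73 and 7.08 FPKM in the ULA libraries (log2FC 1.65, SE 0.08, adjusted p = 4.37e-07). Of the other VEGF genes, Vegfb and Vegfd were higher in OPC (log2FC 0.64 and 0.76, adjusted p = 0.000281 and 0.000887), and Vegfc had 24.6, 20.4 and 27.6 FPKM in the OPC libraries, against 20.7, 21.1 and 19.6 FPKM in the ULA libraries and did not pass (adjusted p = 0.0619, against 0.00229 without OPC replicate 2). Fgf2 had 1.94, 3.28 and 2.08 FPKM in the OPC libraries, against 2.65, 3.22 and 2.17 FPKM in the ULA libraries and did not pass either (adjusted p = 0.576).

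The growth factor Bmp2 had 90.8, 87.1 and 90.1 FPKM in the OPC libraries, against 33.6, 29.9 and 31.4 FPKM in the ULA libraries (log2FC 1.47, SE 0.14, adjusted p = 2.39e-05), and Bmp4 had 15.7, 16.4 and 21.6 FPKM in the OPC libraries, against 5.83, 6.36 and 5.46 FPKM in the ULA libraries (log2FC 1.44, SE 0.10, adjusted p = 3.72e-06). Grem1, a secreted BMP antagonist named after its values were seen, had 144, 145 and 177 FPKM in the OPC libraries, against 42.5, 42.5 and 39.5 FPKM in the ULA libraries (log2FC 1.88, SE 0.07, adjusted p = 9.79e-08). Id3, a BMP target named in the same way, had 322, 334 and 319.6 FPKM in the OPC libraries, against 167, 154 and 141 FPKM in the ULA libraries (log2FC 1.07, SE 0.06, adjusted p = 4.99e-07). The OPC values of all 4 genes lay above the ULA values. Of the TGF-β genes, Tgfb1 and Tgfb2 were higher in OPC and Tgfb3 lower (log2FC 0.34, 0.66 and -0.73, adjusted p = 3.7e-05, 3.59e-05 and 2.52e-05). Of 5 IGF-binding proteins, 4 were lower in OPC. Igfbp3, the main carrier of IGFs, had 22.2, 24 and 23.1 FPKM in the OPC libraries, against 246, 229.5 and 254 FPKM in the ULA libraries (log2FC -3.34, SE 0.06, adjusted p = 2.61e-09), and Igfbp7 was the member that was higher (log2FC 0.76, adjusted p = 6.18e-06).

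**Figure D4:**
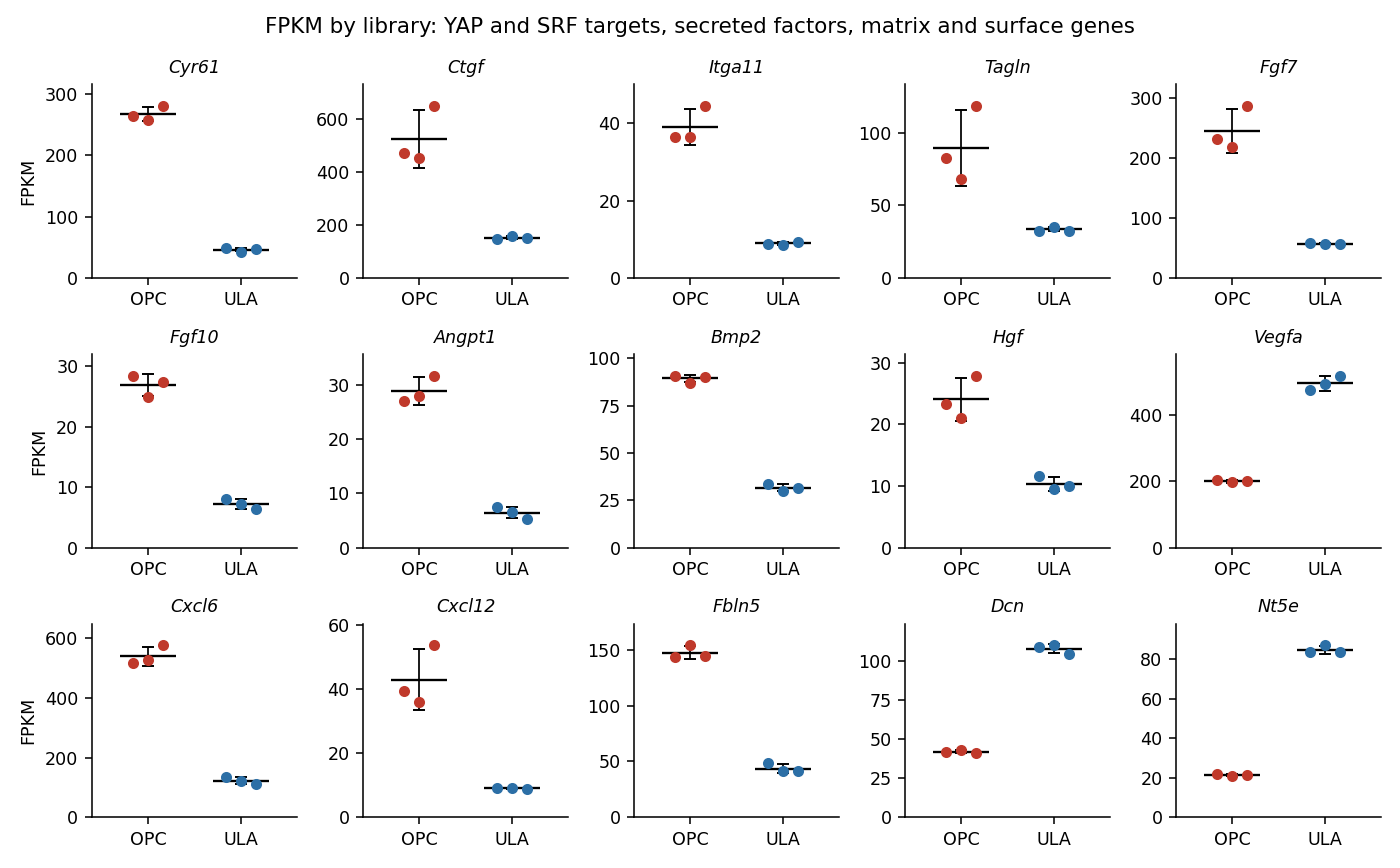
FPKM in each library for 15 genes of attachment, secreted factors, matrix and cell surface, with the 3 OPC libraries (red) left of the 3 ULA libraries (blue), horizontal lines at the group mean and bars of 1 SD. Vegfa, Dcn and Nt5e are lower in OPC and the other 12 are higher, with no overlap between the groups.

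Matrix genes changed in both directions. Collagens were called 6 higher, 9 lower and 3 not passing out of 18 (beside 32.2% higher and 21.7% lower of all genes), and 2 higher and 9 lower under upper-quartile rescaling. The basement membrane pair Col4a1 and Col4a2 was lower (log2FC -0.62 and -0.60, adjusted p = 1.95e-07 and 3.15e-07). Col8a1, a short-chain collagen of vessel walls, had 268, 261 and 309 FPKM in the OPC libraries, against 129, 131 and 125 FPKM in the ULA libraries (log2FC 1.11, SE 0.06, adjusted p = 4.85e-07). Glycoproteins were called 10 higher and 10 lower out of 26, and 9 and 10 under upper-quartile rescaling. Fbln5, an elastic fibre protein, had 143, 154 and 144 FPKM in the OPC libraries, against 48.6, 41.1 and 41.2 FPKM in the ULA libraries (log2FC 1.73, SE 0.06, adjusted p = 6.06e-08). Dcn, decorin, had 42.1, 43.1 and 41.2 FPKM in the OPC libraries, against 109, 110.1 and 105 FPKM in the ULA libraries (log2FC -1.34, SE 0.04, adjusted p = 2.88e-08), and Postn, periostin, had 1780, 1824 and 1674 FPKM in the OPC libraries, against 3682, 3534 and 3549 FPKM in the ULA libraries (log2FC -1.03, SE 0.04, adjusted p = 8.41e-08). Elastic fibre members Eln and Fbn1 were also higher (log2FC 0.69 and 0.50, adjusted p = 1.58e-05 and 4.03e-06), and Fn1, fibronectin, was lower (log2FC -0.51, adjusted p = 7.5e-06). Among proteases and inhibitors, 7 of 16 were higher and 6 lower, and 4 and 6 under upper-quartile rescaling. Mmp14, a membrane collagenase, had 1359, 1313 and 1259 FPKM in the OPC libraries, against 896, 830 and 839 FPKM in the ULA libraries (log2FC 0.62, SE 0.04, adjusted p = 2.82e-06), and Timp1, an inhibitor of such enzymes that overlaps Syn1 on the opposite strand, had 623, 622 and 658 FPKM in the OPC libraries, against 1049, 974 and 997 FPKM in the ULA libraries (log2FC -0.67, SE 0.04, adjusted p = 8e-07).

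Proliferation genes were called higher in OPC more often than lower. Of 36 cell cycle genes, 25 were higher, 3 lower and 8 did not pass, with 2 DEGs and a median log2FC of 0.43. Mki67, the proliferation antigen, had 5.67, 6.3 and 6.93 FPKM in the OPC libraries, against 2.13, 2.07 and 2.28 FPKM in the ULA libraries (log2FC 1.21, SE 0.07, adjusted p = 1.22e-06). Tk1, thymidine kinase, had 2.82, 3.69 and 6.04 FPKM in the OPC libraries, against 1.16, 1.2 and 1.42 FPKM in the ULA libraries (log2FC 1.15, SE 0.18, adjusted p = 0.00062). Top2a had 2.9, 2.87 and 5.72 FPKM in the OPC libraries, against 2.54, 2.3 and 2.14 FPKM in the ULA libraries (log2FC 0.49, adjusted p = 0.0484). For Top2a the first and second OPC libraries lay close to ULA and replicate 3 far above. That library was the highest OPC library in 33 of the 36 genes, with a median excess of 0.30 on the log2 scale. Without it the log2FC of Top2a was 0.23 (adjusted p = 0.0275), and without ULA replicate 1, 2 or 3 Top2a did not pass (adjusted p = 0.0715, 0.0971 and 0.121). Without OPC replicate 3, 20 of the 36 were higher and 3 lower, without ULA replicate 1 17 were higher and 2 lower, and without ULA replicate 2 18 were higher and 2 lower. Under upper-quartile rescaling 19 were higher and 3 lower. Pcna and Ccne2 were lower in OPC (log2FC -0.34 and -0.49, adjusted p = 0.00341 and 0.00152). In the list of cell cycle inhibitors and damage-response genes, 9 of 16 were higher, 3 lower and 4 did not pass. Cdkn1b, the p27 inhibitor, had 22.5, 25.1 and 24.5 FPKM in the OPC libraries, against 53.6, 55.9 and 58.7 FPKM in the ULA libraries (log2FC -1.19, SE 0.05, adjusted p = 1.43e-07), whereas Cdkn1a, the p21 inhibitor, had 194, 203 and 176 FPKM in the OPC libraries, against 117, 108 and 109 FPKM in the ULA libraries (log2FC 0.77, SE 0.06, adjusted p = 3.89e-06). Cytosolic ribosomal protein genes were mostly lower, 24 of 27 lower, 0 higher and 3 not passing, with a median log2FC of -0.43. OPC replicate 3 was the highest OPC library in 25 of the 27, and ULA replicate 2 the highest ULA library in 22. Without OPC replicate 3, 25 were lower, and without ULA replicate 2, 24. Rps20 had 276, 285 and 290.5 FPKM in the OPC libraries, against 433, 519.5 and 496 FPKM in the ULA libraries (log2FC -0.76, SE 0.06, adjusted p = 7.91e-06). Ribosomal protein genes have many processed copies, with which they may share reads.

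**Figure D5:**
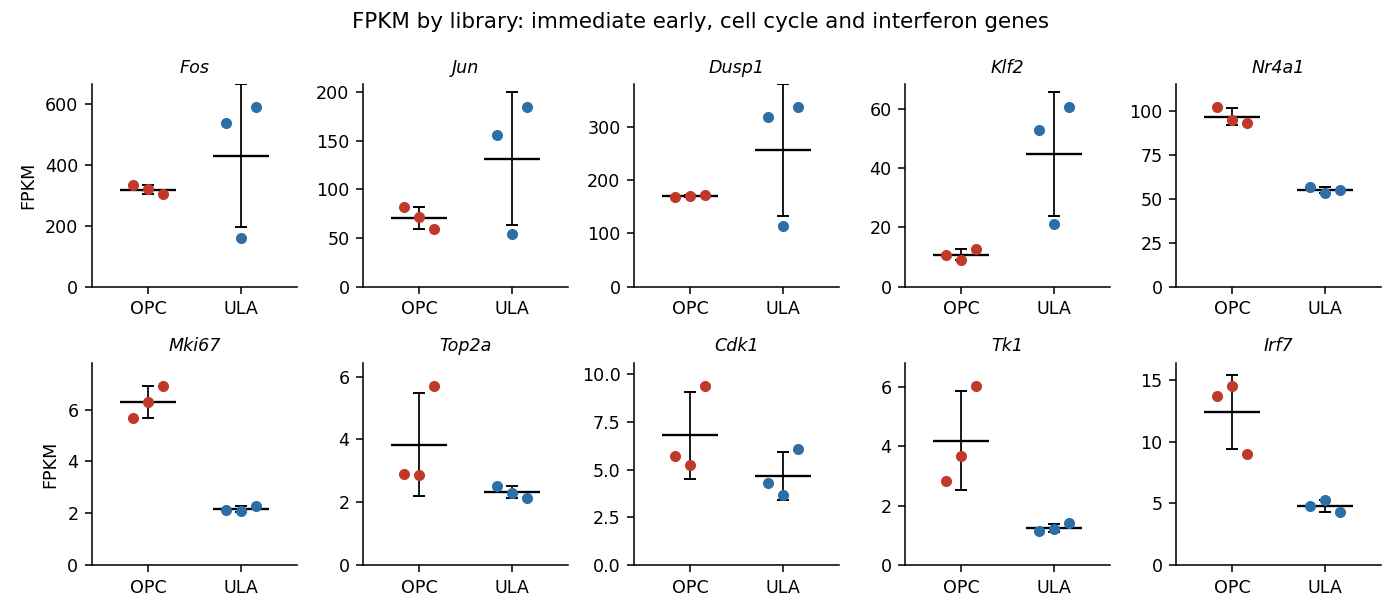
FPKM in each library for 10 genes for which 1 library stood apart from its group, or that serve as their comparison, with the 3 OPC libraries (red) left of the 3 ULA libraries (blue) in replicate order, horizontal lines at the group mean and bars of 1 SD. ULA replicate 2 is the lowest ULA library for Fos, Jun, Dusp1 and Klf2, and OPC replicate 3 is the highest OPC library for Mki67, Top2a, Cdk1 and Tk1 and the lowest for Irf7.

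For immediate early genes, which respond within minutes to stimulation or handling, the number called lower depended most on 1 library. Fos had 334, 320.1 and 306 FPKM in the OPC libraries, against 540.2, 160.1 and 592 FPKM in the ULA libraries and did not pass (log2FC -0.22, adjusted p = 0.676). Jun had 81.4, 72.1 and 59 FPKM in the OPC libraries, against 156, 54.4 and 185 FPKM in the ULA libraries (log2FC -0.72, adjusted p = 0.133). Dusp1, a phosphatase of MAP kinases, had 169, 169.9 and 173 FPKM in the OPC libraries, against 318, 114 and 337 FPKM in the ULA libraries (log2FC -0.43, adjusted p = 0.308). ULA replicate 2 was the lowest ULA library in 16 of the 18 genes, by a median of 0.55 on the log2 scale, and its values for these 3 genes lay below the OPC values. Without it Fos, Jun and Dusp1 were lower in OPC (log2FC -0.82, -1.26 and -0.94, adjusted p = 6.05e-06, 7.58e-05 and 1.09e-06). With it, 7 of 18 were lower in OPC and 3 higher, and without it 15 were lower and 3 higher. Without ULA replicate 1 or 3, 5 were lower and 3 higher. In the fit of all libraries, 21.7% of all genes were lower and 32.2% higher. Klf2, a flow- and stress-responsive factor, was a DEG with ULA replicate 2 included (log2FC -1.83, SE 0.32, adjusted p = 0.0011), with 10.8, 8.94 and 12.8 FPKM in the OPC libraries, against 52.9, 21 and 60.7 FPKM in the ULA libraries. Nr4a1, an orphan nuclear receptor, was higher in OPC (log2FC 0.80, SE 0.04, adjusted p = 4.99e-07), with 102, 94.6 and 93.4 FPKM in the OPC libraries, against 56.9, 53.6 and 54.8 FPKM in the ULA libraries.

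Surface proteins and receptors changed in both directions. Nt5e, which encodes the mesenchymal marker CD73, had 21.8, 20.9 and 21.2 FPKM in the OPC libraries, against 83.6, 86.9 and 83.4 FPKM in the ULA libraries (log2FC -1.94, SE 0.04, adjusted p = 3e-09). Eng, which encodes CD105, had 66.2, 67.3 and 62.4 FPKM in the OPC libraries, against 61.4, 63.6 and 58.5 FPKM in the ULA libraries and did not pass (adjusted p = 0.095, against 0.0403 without OPC replicate 3). Thy1, which encodes CD90, had 26.7, 23.7 and 37.6 FPKM in the OPC libraries, against 20.3, 22.3 and 20.1 FPKM in the ULA libraries (log2FC 0.44, SE 0.14, adjusted p = 0.02), and did not pass without ULA replicate 1 or 3 (adjusted p = 0.0566 and 0.0585). Kit, the stem cell factor receptor, was slightly lower in OPC (log2FC -0.34, adjusted p = 0.00794). Npr3, which clears natriuretic peptides, had 17.3, 14.8 and 34.6 FPKM in the OPC libraries, against 1.49, 3.19 and 2.21 FPKM in the ULA libraries (log2FC 2.75, SE 0.28, adjusted p = 3.62e-05), with OPC replicate 3 the highest. Notch4, which overlaps another gene on the opposite strand, had 0.172, 0.241 and 0.168 FPKM in the OPC libraries, against 10.8, 11.9 and 11.9 FPKM in the ULA libraries (log2FC -3.39, SE 0.09, adjusted p = 1.69e-08). Its OPC values were below 1 FPKM. Olr1, the receptor for oxidised LDL, had 12.8, 11.6 and 16.9 FPKM in the OPC libraries, against 131, 129 and 125 FPKM in the ULA libraries (log2FC -3.15, SE 0.10, adjusted p = 4.19e-08), and Vwa1, a matrix protein of basement membranes, had 0.657, 0.443 and 0.641 FPKM in the OPC libraries, against 17.6, 20.6 and 21 FPKM in the ULA libraries (log2FC -3.71, SE 0.09, adjusted p = 8.31e-09). Tmem255b had 0.696, 0.368 and 0.0671 FPKM in the OPC libraries, against 27.8, 27.2 and 32 FPKM in the ULA libraries (log2FC -4.47, SE 0.15, adjusted p = 4.34e-08). Esm1, a proteoglycan of vessel endothelium, and Arsi, a sulfatase, were among the largest increases (log2FC 2.50 and 2.21, adjusted p = 6.07e-06 and 9.89e-06).

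Mitochondrial genes held no DEG in the lists that follow. The counts of this paragraph are read beside 32.2% higher and 21.7% lower of all genes tested. All 13 protein genes of the mitochondrial genome were tested, 8 were higher in OPC and 5 did not pass, with a median log2FC of 0.21, and 6 were higher and 1 lower under upper-quartile rescaling. OPC replicate 3 was the highest OPC library in 12 of the 13, against 32.4% of all genes, and without it 7 were higher and 0 lower. Without ULA replicate 3, 6 were higher and 1 lower. Mt-co2 had 6280, 6368 and 6808 FPKM in the OPC libraries, against 5156, 5135 and 4562 FPKM in the ULA libraries (log2FC 0.39, SE 0.06, adjusted p = 0.000451), beside the mitochondrial shares of all FPKM given above. Nuclear genes of the respiratory chain were called 14 higher, 6 lower and 18 not passing out of 38, with no DEG, and 10 higher and 9 lower under upper-quartile rescaling. TCA cycle genes were called 10 higher and 3 lower out of 23, and 9 and 5 under upper-quartile rescaling. Mdh2 had 86.1, 81.8 and 83.1 FPKM in the OPC libraries, against 59.95, 61.3 and 53.8 FPKM in the ULA libraries (log2FC 0.52, adjusted p = 2.89e-05), and Sdha did not pass (log2FC -0.05, adjusted p = 0.411), but was lower under upper-quartile rescaling (log2FC -0.12, adjusted p = 0.0444). Autophagy genes were called 5 higher and 7 lower out of 19, and 4 and 9 under upper-quartile rescaling. Lamp1, a lysosomal membrane protein, had 423, 441 and 438 FPKM in the OPC libraries, against 238, 226 and 231 FPKM in the ULA libraries (log2FC 0.90, SE 0.03, adjusted p = 7.76e-08), and Gabarapl1, which coats autophagosomes, had 83.8, 76.7 and 70.5 FPKM in the OPC libraries, against 132, 146 and 143 FPKM in the ULA libraries (log2FC -0.86, SE 0.06, adjusted p = 4.39e-06). Heat shock genes were called 8 higher and 3 lower out of 13, 4 and 4 under upper-quartile rescaling, and 4 were higher without OPC replicate 1. Hsph1, a cytosolic chaperone, had 58.4, 59.1 and 61.9 FPKM in the OPC libraries, against 36.8, 35.6 and 36 FPKM in the ULA libraries (log2FC 0.71, SE 0.04, adjusted p = 6.04e-07). Iron genes were called 4 higher and 4 lower out of 8, with Slc11a2, an iron importer, higher (log2FC 0.66, adjusted p = 7.03e-06), and Steap3, an endosomal ferrireductase, lower (log2FC -0.72, adjusted p = 4.28e-05).

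The strand used in counting is not given, and several genes named above overlap a gene on the opposite strand, with which reads may be shared: Lox, Derl3, Idi1, Scap, Egln2, Pygb, Cxcl10, Tgfb2, Igfbp7, Fgf2, Ccne2, Fbn1, Fn1 and Slc11a2. Tagln overlaps Sidt2 on the same strand.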

How the data were processed

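RNA-Seq was performed on 9 libraries, 3 each of CDCs on OPC, ULA and PS. The labels give Trizol extraction and the methods another kit. According to the submitters' processing notes, reads were mapped to rn6 with HISAT2 2.1 and processed with StringTie 1.3.0, whereas the methods name featureCounts and DESeq2, and strand use is not given. The authors deposited 1 normalised value per gene and library, which was taken as FPKM from its values because no source names the unit. As FPKM is relative to all transcripts of a library, a few abundant genes can shift the rest, and no count test was run.

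The analysis used limma 3.58.1 in R 4.3.3 on log2(FPKM + 1), with a mean-variance trend, all 9 libraries in 1 fit, the contrast OPC minus ULA and Benjamini-Hochberg adjustment over the 12513 genes tested. An adjusted p up to 0.05 counted as passing, and DEGs also had |log2FC| of at least 1. The pseudocount understates changes of low genes. The procedure was tested on simulated data. Python 3.11.15, pandas 2.3.3, NumPy 2.4.6 and Matplotlib 3.10.9 were used for summaries and plots. Of 775 gene names in the lists, 737 were matched by symbol and 1 by symbol with another case, 5 fitted several entries and stayed out, and 32 found no entry. The members and the lists were chosen with earlier results of these data known, so counts are descriptions beside those of all genes.

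Genes were named by rule: the top 15 DEGs by |log2FC| in each direction (with a symbol, no overlap between groups and a mean from 5 FPKM), then for each list up to 4 members of lowest adjusted p in the direction most of them took and up to 2 in the opposite one, and receptors, partners or subunits that a sentence needs. Genes outside the rule were chosen after their values were seen. Some genes that the rule names are not reported here. Alternatives covered the pseudocount, the filter, rescaling between libraries, limma without a trend, the 6 libraries alone, a replicate block, thresholds and leaving out each OPC or ULA library.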

Additional observations from a re-analysis of the deposited data

How the results depend on the processing

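The number of genes that passed changed little with the processing, and the number of DEGs followed the pseudocount and the fold threshold. Leaving out each OPC or ULA library gave 6039 to 6286 passing genes (3624 to 3849 higher in OPC, 2392 to 2567 lower) and 523 to 573 DEGs (216 to 236 higher, 306 to 340 lower). DEGs numbered 892 (391 higher, 501 lower) with a pseudocount of 0.1, 245 (103 higher, 142 lower) with 5, 1752 (903 higher, 849 lower) at a fold threshold of 1.5 and 76 (23 higher, 53 lower) at a log2 fold threshold of 2. Of the 542 DEGs, 542 passed under upper-quartile or median-ratio rescaling, which turned the share of passing genes that were higher to 49.8 and 51.7%, against 59.8% as deposited. Same-numbered OPC and ULA libraries did not deviate together (r = -0.012, -0.009 and -0.024). This cannot decide whether they share an animal or cells, which the labels do not state. With a replicate block 6540 genes passed (3909 higher, 2631 lower) and 544 were DEGs (228 higher, 316 lower).

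Of the 179 genes with values in the text, 156 kept their direction and their side of the threshold under each alternative. The genes that turned direction had not passed. Under upper-quartile and median-ratio rescaling, in that order, the log2FC was -0.020 and -0.009 for Adm, -0.024 and -0.012 for Arnt, -0.020 and -0.008 for Cdh2, -0.057 and -0.046 for Hif1an, -0.049 and -0.039 for Pmvk, and -0.034 and -0.022 for Wwtr1. Leaving out 1 library gave -0.222 to 0.259 for Adm, -0.149 to 0.012 for Casp1, -0.015 to 0.379 for Ccl5, -0.247 to 0.054 for Cxcl10, -0.821 to 0.119 for Fos, -0.098 to 0.068 for Hif1an, -0.082 to 0.10 for Pmvk, -0.087 to 0.001 for Sdha and -1.899 to 0.878 for Selenow. Top2a, Thy1, Cnn1 and Ptges passed as deposited and did not under at least 1 alternative. The reverse held for Egln2 with the 6 libraries alone, for Fundc1 and Sdha under upper-quartile rescaling (adjusted p = 0.0443 and 0.0444), and for Adm, Dusp1, Eng, Fos, Fundc1, Jun, Tma7 and Vegfc without 1 library. The cause of these changes was not tested. Depth limits the genes near the filter, for which a few fragments decide the value.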

Other observations

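Further DEGs that the comparison above does not describe were named after their values were seen. Gpnmb, a glycoprotein of lysosomes and melanosomes, had 2001, 1881 and 1834 FPKM in the OPC libraries, against 922, 853 and 847 FPKM in the ULA libraries (log2FC 1.12, SE 0.05, adjusted p = 1.4e-07). It was the second most abundant DEG higher in OPC, among DEGs with a symbol and no overlap between groups. Lcn2, an iron-siderophore binding protein of inflammation, had 2121, 2040 and 1981 FPKM in the OPC libraries, against 4580, 4141 and 4212 FPKM in the ULA libraries (log2FC -1.07, SE 0.05, adjusted p = 1.71e-07), the highest level among such DEGs lower in OPC. Vim, the intermediate filament protein of mesenchymal cells, had 597, 580.5 and 676 FPKM in the OPC libraries, against 1273, 1481 and 1433 FPKM in the ULA libraries (log2FC -1.18, SE 0.07, adjusted p = 1.05e-06). Mme, which encodes the surface peptidase CD10, had 140.5, 136 and 160.5 FPKM in the OPC libraries, against 49, 46.1 and 46.1 FPKM in the ULA libraries (log2FC 1.61, SE 0.07, adjusted p = 1.36e-07), and Sfrp2, a secreted WNT modulator, had 175, 169 and 157 FPKM in the OPC libraries, against 62.8, 54.2 and 53.5 FPKM in the ULA libraries (log2FC 1.54, SE 0.08, adjusted p = 5.24e-07). Hes1, a NOTCH target, had 72.8, 87 and 77 FPKM in the OPC libraries, against 21.2, 23.7 and 17.6 FPKM in the ULA libraries (log2FC 1.88, SE 0.10, adjusted p = 7.97e-07), while the receptor gene Notch4 was lower. The OPC and ULA values of these genes did not overlap. Apln, which encodes the vessel peptide apelin, had 7.88, 7.49 and 8.83 FPKM in the OPC libraries, against 31.2, 25.3 and 31.6 FPKM in the ULA libraries (log2FC -1.74, SE 0.14, adjusted p = 7.79e-06), and Tnfrsf11b, which encodes osteoprotegerin, had 15.4, 14.1 and 21.3 FPKM in the OPC libraries, against 6.15, 6.28 and 5.68 FPKM in the ULA libraries (log2FC 1.33, SE 0.12, adjusted p = 1.83e-05).

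In 20 of the 12513 genes tested the values of 1 group ranged over at least 10-fold with a highest value of at least 10 FPKM. Selenow had 105, 5.29 and 89 FPKM in the OPC libraries, against 104, 201 and 6.02 FPKM in the ULA libraries, and Tma7 had 2.66, 2.53 and 41.3 FPKM in the OPC libraries, against 25.8, 39.1 and 35.5 FPKM in the ULA libraries. Of these 20 genes 1 passed the test, LOC108348144. Without OPC replicate 3 Tma7 passed as well (log2FC -3.24, adjusted p = 0.0147).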
